A study of Mus musculus with 28 samples.

Results

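The genes for GABA synthesis, uptake and breakdown were followed through RNA-Seq and TRAP-Seq of the mouse cerebral cortex. The 7 genes were taken by symbol from a fixed set (Gad1, Gad2, Slc6a11, Slc6a13, Abat, Aldh5a1 and Maob). The P17 bulk data held 53342 gene identifiers, of which 53341 were shared with the P24 bulk data. All 7 genes were found in every experiment. The animals were C57BL/6J-background conditional knockout mice (cKO), which carried mGFAP-Cre and loxP/loxP alleles, and sex-matched littermates with loxP/loxP or loxP/+ alleles (Ctrl), whose genotypes are given without the driver. Bulk RNA-Seq was performed at P17 (4 Ctrl and 4 cKO mice) and at P24 (4 Ctrl and 4 cKO mice). TRAP-Seq was performed at P24 in 3 Ctrl and 3 cKO mice, each of which gave an Input library, made from a small share of the lysate supernatant, and an IP library. In TRAP-Seq, a ribosomal protein fused to EGFP is expressed only after Cre recombination, and the anti-GFP immunoprecipitate holds the RNA bound to the tagged ribosomes. The fusion protein depends on mGFAP-Cre, and the paper describes its expression in the TRAP-Seq mice through this driver. The Ctrl mice there are listed by their loxP alleles alone, so that their carrying the driver is not stated outright in the sources used here. The driver marks astrocytes but can also recombine in other cells derived from GFAP-expressing progenitors. With a Cre-dependent fluorescent reporter, the paper found Cre in astrocytes but not in neurons of the postnatal cerebral cortex. Each library came from 1 mouse, and the bulk libraries were primed with oligo-dT.

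GABA, the main inhibitory transmitter of the cortex, is made from glutamate by the glutamate decarboxylases GAD67 and GAD65, encoded by Gad1 and Gad2. After release it is cleared by plasma membrane transporters, among them GAT3 (Slc6a11), which is concentrated on astrocyte processes, and GAT2 (Slc6a13), which is found mainly in the leptomeninges and along blood vessels. Inside the cell, GABA transaminase (Abat) converts GABA to succinic semialdehyde and succinic semialdehyde dehydrogenase (Aldh5a1) oxidises this to succinate for the citric acid cycle. Astrocytes can also make GABA without glutamate decarboxylase, from putrescine, on a route that uses monoamine oxidase B (Maob).

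In the GRCm38 annotation, Slc6a11 (ENSMUSG00000030307) lies at chr6:114131241-114249952 and Slc6a13 (ENSMUSG00000030108) at chr6:121300227-121337733, both on the plus strand. Gad1 (ENSMUSG00000070880) lies at chr2:70553072-70602014 and Gad2 (ENSMUSG00000026787) at chr2:22622205-22693874, also on the plus strand. Abat (ENSMUSG00000057880) lies at chr16:8513429-8621568 on the plus strand, Aldh5a1 (ENSMUSG00000035936) at chr13:24907579-24937661 on the minus strand and Maob (ENSMUSG00000040147) at chrX:16709282-16817366 on the minus strand. The counts refer to whole genes, with exonic lengths between 2789 bases for Maob and 7748 bases for Abat. The promoters of the GABA transporter genes are shown because these paralogues were recovered in opposite directions in the TRAP-Seq immunoprecipitate. They are the 250 bases before the RefSeq start (GRCm38.p6, plus strand, 5′ to 3′), at chr6:114130991-114131240 for Slc6a11 and at chr6:121300038-121300287 for the most upstream of the 3 Slc6a13 starts, with matches to GGGCGG, the GC box, on either strand in capitals.
Slc6a11: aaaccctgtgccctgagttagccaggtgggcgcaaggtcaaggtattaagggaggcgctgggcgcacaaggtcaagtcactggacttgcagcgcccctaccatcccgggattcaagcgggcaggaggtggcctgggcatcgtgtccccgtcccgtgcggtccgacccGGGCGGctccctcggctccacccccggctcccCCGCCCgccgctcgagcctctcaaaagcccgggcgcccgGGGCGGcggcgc
Slc6a13: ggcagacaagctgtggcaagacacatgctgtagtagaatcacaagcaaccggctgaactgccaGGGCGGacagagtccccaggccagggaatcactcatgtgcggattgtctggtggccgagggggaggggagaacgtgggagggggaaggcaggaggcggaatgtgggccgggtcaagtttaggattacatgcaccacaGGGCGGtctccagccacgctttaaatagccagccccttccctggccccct
The Slc6a11 window held 3 GC boxes and 71.2% G and C, and the Slc6a13 window 2 GC boxes and 60.8%. A GC box was found in 32.7% of 32851 RefSeq promoter windows of this length. Neither window held TATAAA (12.4% of all windows, on either strand), CCAAT (33.8%) or the NFI half-site TTGGC (41.5%). The windows of the other Slc6a13 starts held no GC box, and the one at chr6:121300490-121300739 held 1 CCAAT and 1 TTGGC. Which start is used in the cortex was not tested. Among the other members with an entry, the window of Gad1 held 1 GC box and 1 TATAAA and the window of Gad2 held 1 CCAAT and 1 TTGGC, and the window of Aldh5a1 held 1 CCAAT. No entry was found for Abat or Maob.

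The P17 bulk libraries held 8855488 to 11454729 counted reads, the P24 bulk libraries 12603888 to 14575306 and the TRAP-Seq libraries 18433087 to 27242445. Levels are given in counts-per-million units (CPM), scaled with TMM factors over all bulk or all TRAP-Seq libraries, and 3 reads, the limit that a count of 0 allows for counting error only, were worth 0.206 to 0.339 CPM in the bulk libraries and 0.11 to 0.163 CPM in the TRAP-Seq libraries. In Ctrl mice, all 10 astrocyte markers examined were higher in IP than in Input, with a median log2 difference of 3.51, against -1.73 for 6 neuronal markers, of which 5 were lower. The endothelial markers were all lower in IP, and their summed level in the Ctrl IP libraries lay between 2.34 and 2.53 CPM. Some libraries stood apart within their groups. Replicates 1 and 4 of the P24 bulk Ctrl mice were high for several members and for the interneuron genes Dlx1 and Sp8. Replicate 1 of the cKO Input libraries was low for several members. Its summed level of 13 interneuron markers was high, at 672 CPM against 430 and 424 CPM in cKO Input replicates 2 and 3. The values without these libraries, given beside the results they moved, are of a choice made after the values were seen.

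The members differed widely in level, and their order differed between whole cortex and the immunoprecipitate. Per kilobase of exon, Abat, Slc6a11, Gad1 and Gad2 were the most abundant members in bulk cortex, Aldh5a1 lay in the middle, and Maob and Slc6a13 were lowest. In P24 bulk Ctrl libraries, the level was 30.2 ± 6.2 CPM per kb for Gad1, 29.5 ± 6.53 for Slc6a11, 28.1 ± 1.83 for Abat and 23.2 ± 3.98 for Gad2 (SD, n = 4), and the libraries of each of these overlapped those of the next. Aldh5a1 followed at 11.6 ± 0.309 CPM per kb, Maob at 3.52 ± 0.353 and Slc6a13 at 2.16 ± 0.23 (SD, n = 4), with no overlap between neighbours from Gad2 downwards. In the Ctrl IP libraries, Abat (48 ± 5.91 CPM per kb), Slc6a11 (41.8 ± 6.86) and Maob (41.5 ± 5.16, SD, n = 3) were the highest members, and their libraries overlapped. Maob, near the bottom of the order in bulk cortex, had thus moved among the top 3 in IP. Gad1 (10.9 ± 2.29 CPM per kb) and Gad2 (8.02 ± 1.59) lay below Aldh5a1 (19.8 ± 2.1) in IP, and Slc6a13 was close to the counting floor at 0.0741 ± 0.0187 (SD, n = 3). In the cKO IP libraries, Slc6a11 was at 20.7 ± 6.24 CPM per kb, below Abat (42.8 ± 7.52), Maob (24.5 ± 3.16) and Aldh5a1 (21.5 ± 3.18, SD, n = 3), and in this order of Maob, Aldh5a1 and Slc6a11 each gene overlapped the next.

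**Figure D1:**
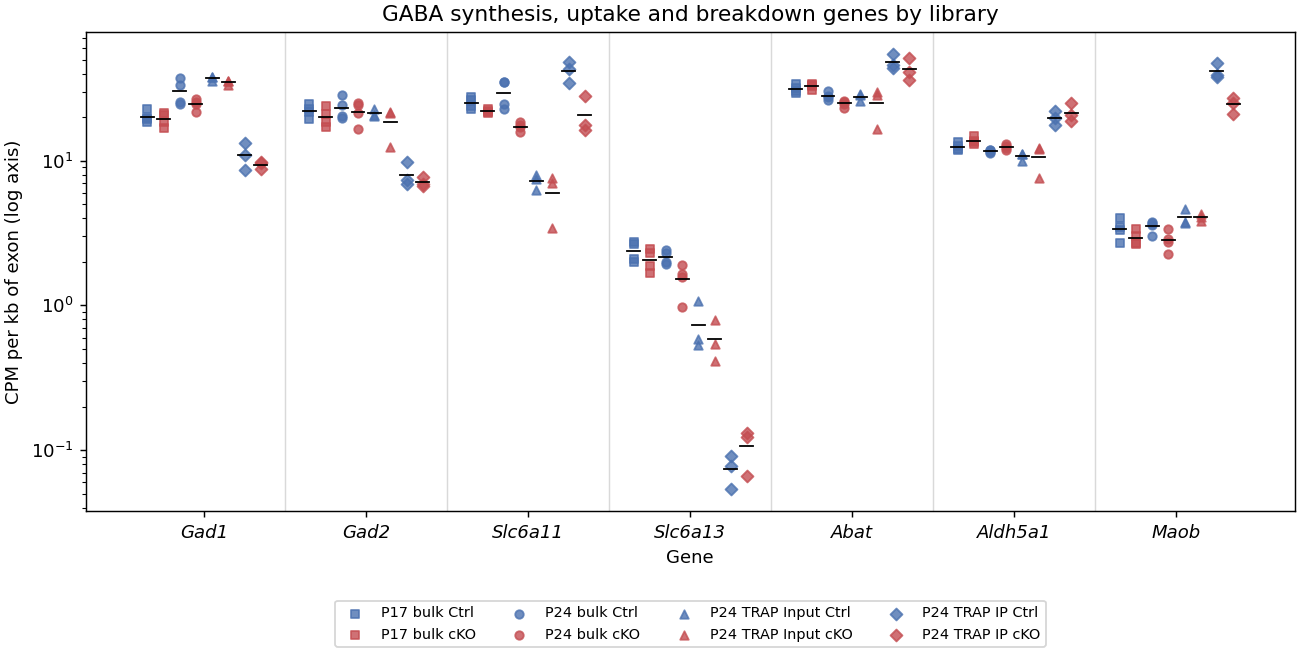
Levels of the 7 genes in every library, in CPM per kb of exon on a log axis, with genes on the horizontal axis; blue marks Ctrl and red cKO, the marker shape gives the experiment, and black bars are group means. Maob rises from between 3 and 4 CPM per kb in P24 bulk Ctrl libraries to 41.5 in Ctrl IP, Gad1 and Gad2 fall in IP, and Slc6a13 has the lowest mean in every group.

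Gad1 and Gad2, the glutamate decarboxylase genes, did not pass the test between cKO and Ctrl in any set of libraries. At P24, Gad1 was at 256, 189, 193 and 285 CPM in the bulk Ctrl libraries and at 166, 193, 188 and 205 CPM in cKO. The Ctrl values split into a high pair (replicates 1 and 4) and a pair within the cKO range, and the groups overlapped. The log2 fold change was -0.29 ± 0.12 (SE, adjusted p = 0.329, edgeR's quasi-likelihood test), and the exact two-sided permutation test gave p = 0.2. Without Ctrl replicates 1 and 4, the log2 fold change of Gad1 was -0.02 (adjusted p = 0.964, edgeR). For Gad2, the same libraries held 143, 116, 120 and 166 CPM in Ctrl and 97.8, 147, 126 and 141 CPM in cKO. Replicate 1 was the lowest of the cKO mice, and the groups overlapped over most of their range. The log2 fold change of Gad2 was -0.08 (95% CI -0.38 to 0.20, adjusted p = 0.852, edgeR), and it turned positive, at 0.13, without Ctrl replicates 1 and 4. At P17, Gad1 lay between 142 and 175 CPM in Ctrl and between 129 and 162 CPM in cKO mice, and Gad2 between 115 and 144 and between 101 and 140 CPM, with overlap in each case. In the immunoprecipitate, Gad1 was at 101, 65.8 and 83.2 CPM in Ctrl and 74.9, 66.8 and 73.6 CPM in cKO, a log2 fold change of -0.21 (95% CI -0.51 to 0.10, adjusted p = 0.332, edgeR). Gad2 was at 57.9, 43 and 40.5 CPM in Ctrl IP and 45.5, 39.1 and 40.5 CPM in cKO IP, so that replicate 1 of the Ctrl mice was the highest library for each of these enzymes.

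Gad1 differed between the 2 ages in Ctrl mice. It was 1.5-fold higher at P24 than at P17 (231 ± 47.3 against 154 ± 14.4 CPM; SD, n = 4), and every P24 library lay above every P17 library. The log2 difference was 0.58 ± 0.12 (SE, adjusted p = 0.00561, edgeR's quasi-likelihood test). Gad1 was the only one of the 7 genes called in this comparison, in which 19.6% of 22215 genes were called. Without P24 Ctrl replicates 1 and 4 the difference was 0.31 on the log2 scale (adjusted p = 0.0438, edgeR), and without replicate 4 alone Abat, lower at P24 by 0.21 on the log2 scale, was called as well (adjusted p = 0.0405, edgeR). Gad2 differed by 0.06 on the log2 scale (95% CI -0.17 to 0.29). The ratio of Gad1 to Gad2 was 1.19 ± 0.133 at P17 and 1.69 ± 0.0794 at P24 in Ctrl mice (SD, n = 4, exact permutation test, p = 0.0286, the smallest possible), a ratio chosen after the values were seen. The 2 ages were separate sequencing experiments, so age and experiment cannot be told apart.

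**Figure D2:**
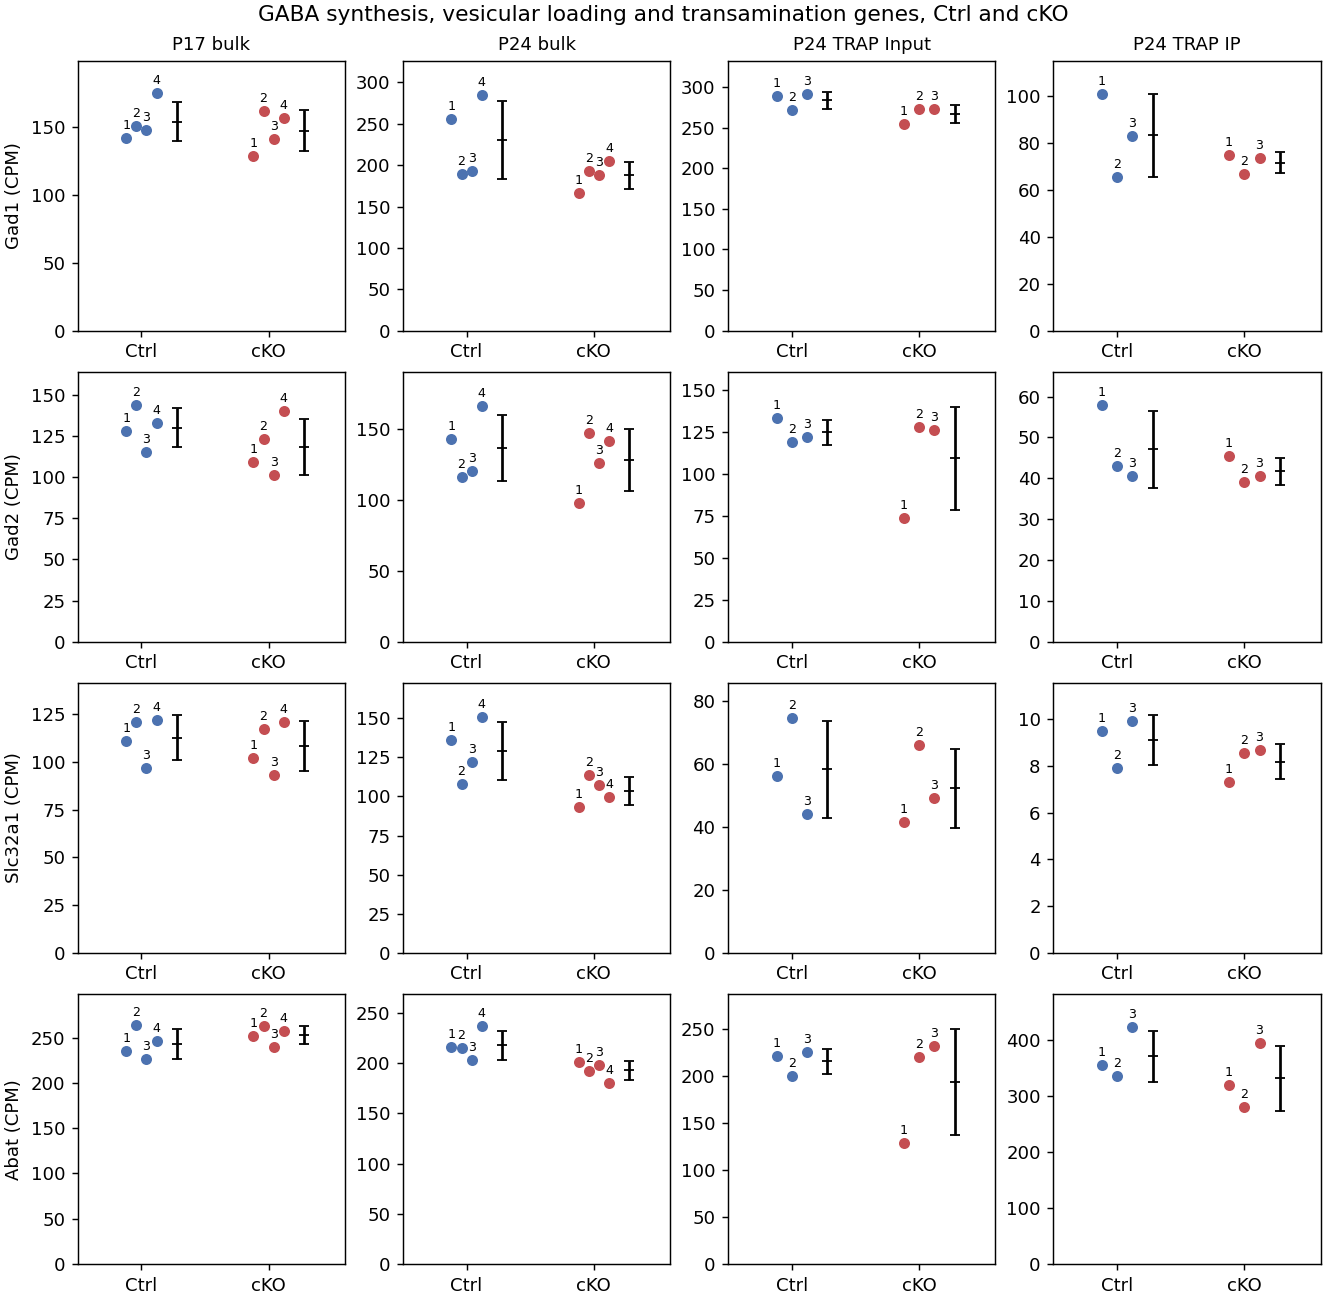
CPM of Gad1, Gad2, Slc32a1 (the vesicular GABA transporter) and Abat in each library, by experiment in columns, with numbers marking replicates and black bars the mean ± SD. Ctrl replicates 1 and 4 are the highest P24 bulk Ctrl libraries for Gad1, Gad2 and Slc32a1, replicate 1 of the cKO Input libraries is the lowest for Gad2 and Abat, and the Ctrl and cKO points overlap in most panels, with Abat at P24 as an exception.

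Slc6a11, which encodes GAT3, was called lower in cKO mice at P24 in bulk cortex and in the immunoprecipitate. It was not called in the Input libraries, which also hold P24 cortex lysate, taken before the immunoprecipitation. In P24 bulk cortex, Slc6a11 was at 177, 125, 116 and 177 CPM in Ctrl mice and at 93.2, 79.1, 88.7 and 85.9 CPM in cKO mice. Every cKO library lay below every Ctrl library, and the cKO values were closer together than the Ctrl values. The cKO mean was 58.3% of the Ctrl mean, with a log2 fold change of -0.78 ± 0.13 (SE, adjusted p = 0.00918, edgeR's quasi-likelihood test, and exact permutation test, p = 0.0286). It was the only member called, in a comparison in which 1.72% of 22495 genes were called and 0.462% were called lower. At an unadjusted p under 0.05 in edgeR, every member but Gad2 was counted, where 2958 of 22495 genes were. Of the members counted, Aldh5a1 was higher in cKO mice and the others were lower. Ctrl replicates 1 and 4 carried part of the difference. Without this pair the log2 fold change was -0.47 and the adjusted p was 0.0429 (edgeR), still past the threshold. In bulk samples, fewer cells of a type and less RNA per cell cannot be told apart.

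In the immunoprecipitate, Slc6a11 was at 174, 217 and 242 CPM in Ctrl mice and at 82.9, 89.5 and 141 CPM in cKO mice. Replicate 3 was the highest of each genotype, and the groups did not overlap. The cKO mean was 49.4% of the Ctrl mean (log2 fold change -1.01 ± 0.19, SE, adjusted p = 0.00483, edgeR). The exact permutation test gave p = 0.1, the smallest that 3 mice against 3 allow. Leaving out any 1 IP library gave a log2 fold change between -1.29 and -0.84, past the threshold each time. In the Input libraries of the same mice, Slc6a11 was at 37.5, 40.4 and 31.7 CPM in Ctrl and at 17.3, 38.5 and 35.4 CPM in cKO. Only cKO replicate 1 lay below the Ctrl range there, and without it the log2 fold change went from -0.26 to 0.02 (95% CI with all libraries -0.89 to 0.37). At P17, Slc6a11 was at 120, 140, 114 and 132 CPM in Ctrl and 110, 115, 108 and 112 CPM in cKO mice. The P17 groups overlapped by a small margin, and the log2 fold change was -0.18 ± 0.07 (SE, adjusted p = 1, edgeR), or 0.118 for the adjusted p with the replicate number as a block.

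**Figure D3:**
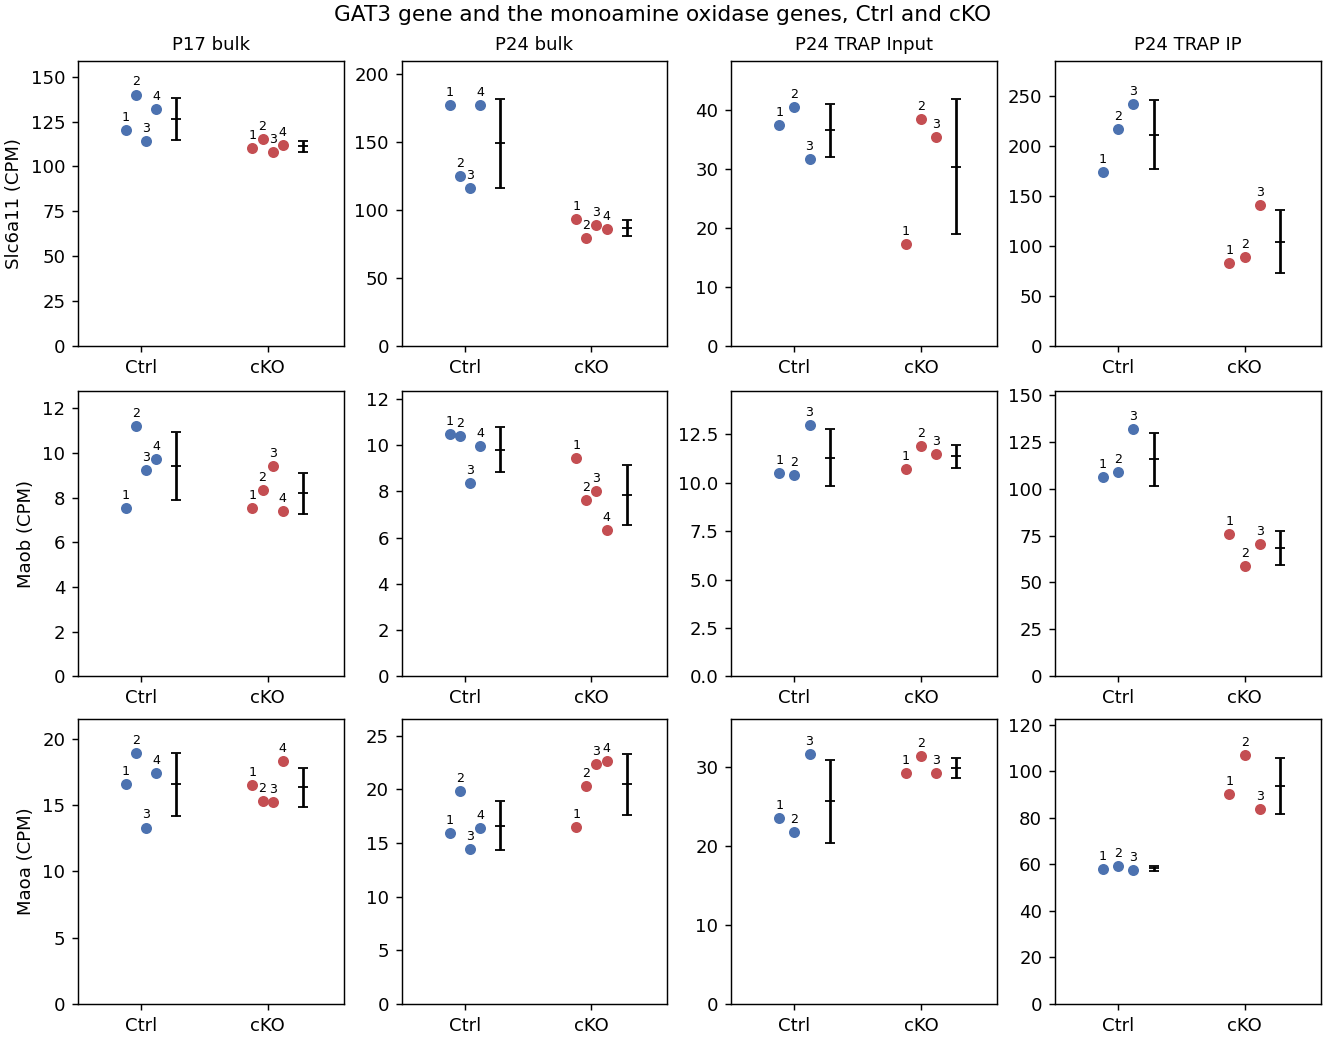
CPM of Slc6a11, Maob and Maoa in each library, by experiment in columns, with numbers marking replicates and black bars the mean ± SD. In IP, all 3 cKO points of Slc6a11 and of Maob lie below all Ctrl points, while all 3 cKO points of Maoa lie above; in P24 bulk, Ctrl replicates 1 and 4 of Slc6a11 are the highest at 177 CPM.

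Slc6a13, which encodes GAT2, was a low transcript in bulk cortex and nearly absent from the immunoprecipitate. It was at 6.66, 5.8, 7.02 and 5.64 CPM in P24 bulk Ctrl and at 2.83, 4.81, 5.52 and 4.59 CPM in cKO mice. The cKO values all lay below the Ctrl values, the nearest by a narrow margin, and the fold change did not pass the test (log2 -0.50 ± 0.18, SE, adjusted p = 0.233, edgeR, and exact permutation test, p = 0.0286). In IP, it was covered by 4 to 7 reads per Ctrl library and 5 to 9 reads per cKO library, and it fell under the filter on low counts. Without the filter, its log2 fold change in IP was 0.52 ± 0.62 (SE, adjusted p = 0.667, edgeR), so a difference was not detectable at this depth. At P17, it lay between 5.82 and 8.02 CPM in Ctrl and between 4.84 and 7.18 CPM in cKO mice, with overlap. The fibroblast and leptomeningeal markers, with which this gene is usually found, had a summed level between 163 and 225 CPM in P24 bulk Ctrl and between 123 and 222 CPM in cKO libraries, and none of the 9 was at 0 in every library of a group. Of these 9 genes, 1 was higher in P24 bulk cKO mice (Igfbp2) and none was lower, where 1.26% of all genes were called higher and 0.462% lower. The median log2 fold change of the 9 was -0.29 against 0.001 over all genes tested. Without Ctrl replicates 1 and 4 this median was 0.03 and none was called. Without cKO replicate 1 it was -0.14 and 2 were called higher. Igfbp2 was itself higher in IP than in Input of Ctrl mice, and without it the summed level lay between 138 and 200 CPM in P24 bulk Ctrl and between 91 and 154 CPM in cKO libraries. Their part in the Slc6a13 values was not tested.

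Abat and Aldh5a1, the enzymes of the breakdown route into the citric acid cycle, did not pass the test in any comparison of cKO with Ctrl. Abat, the transaminase gene, was at 216, 215, 203 and 237 CPM in P24 bulk Ctrl and 201, 192, 198 and 180 CPM in cKO mice. The groups did not overlap but lay close together, and the cKO mean was 88.7% of the Ctrl mean (log2 fold change -0.17 ± 0.06, SE, adjusted p = 0.219, edgeR, and exact permutation test, p = 0.0286). At P17, Abat was at 235, 264, 226 and 246 CPM in Ctrl and 252, 263, 240 and 257 CPM in cKO, and the sign of the difference was the opposite one (log2 0.06, 95% CI -0.07 to 0.19). Slc6a11, Slc6a13 and Abat were thus the 3 of 7 members whose P24 bulk cKO values lay wholly below Ctrl, against 3.8% of 21083 genes with a mean of at least 1 CPM.

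Aldh5a1, the dehydrogenase gene, was at 64.4, 67.4, 63.6 and 66.4 CPM in P24 bulk Ctrl and 74, 71.5, 67.1 and 69.7 CPM in cKO mice. All but 1 of the cKO libraries lay above the Ctrl range, and the log2 fold change was 0.11 ± 0.05 (SE, adjusted p = 0.364, edgeR). At P17 the log2 fold change was 0.14 (95% CI -0.009 to 0.28, adjusted p = 1, edgeR). In IP, Abat lay between 336 and 423 CPM in Ctrl and between 280 and 395 CPM in cKO mice, and Aldh5a1 between 100 and 124 and between 106 and 141 CPM, with overlap in each case. The intervals of the IP log2 fold changes reached from -0.46 to 0.15 for Abat and from -0.15 to 0.40 for Aldh5a1. The Aldh5a1 values carry a counting limit. The antisense gene 4932702P03Rik overlaps its 3′ end, 13.7% of the 50-base words of Aldh5a1 transcripts were also found in transcripts of 4932702P03Rik and 9330162012Rik, and the strand setting of the counting is not given, so reads of these genes cannot be told apart. For the other members the share of such words was at most 1.49% (Gad1).

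Maob, the monoamine oxidase B gene, was lower in cKO mice in the immunoprecipitate. It was at 106, 109 and 132 CPM in Ctrl IP and at 76, 58.6 and 70.3 CPM in cKO IP. The groups did not overlap, and the lowest Ctrl library lay well above the highest cKO library. The cKO mean was 59% of the Ctrl mean (log2 fold change -0.75 ± 0.13, SE, adjusted p = 0.00232, edgeR, and exact permutation test, p = 0.1), and without any 1 library the log2 fold change stayed between -0.82 and -0.64, past the threshold. Slc6a11 and Maob were the 2 members called of the 6 tested in IP, where 20.0% of 23864 genes were called and 8.42% were called lower. They were also the 2 members whose cKO IP libraries lay wholly below Ctrl, as 20.5% of 19987 genes of at least 1 CPM did. The Input libraries of the same mice held 10.5, 10.4 and 13 CPM of Maob in Ctrl and 10.7, 11.9 and 11.5 CPM in cKO, with a log2 fold change of 0.007 (95% CI -0.37 to 0.38). In P24 bulk cortex, Maob was at 10.5, 10.4, 8.38 and 9.96 CPM in Ctrl and 9.44, 7.61, 8.03 and 6.32 CPM in cKO mice, which overlapped (log2 -0.32 ± 0.13, SE, adjusted p = 0.314, edgeR). At P17, Maob lay between 7.53 and 11.2 CPM in Ctrl and between 7.42 and 9.42 CPM in cKO mice.

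Maoa, which encodes the sister enzyme monoamine oxidase A, moved the other way in IP. It was at 58, 59.4 and 57.4 CPM in Ctrl IP and at 90.2, 107 and 84 CPM in cKO IP (log2 fold change 0.69 ± 0.10, SE, adjusted p = 0.00148, edgeR). The 3 Ctrl libraries were nearly equal, and all cKO libraries lay above them. The ratio of Maob to Maoa in IP was 1.99 ± 0.272 in Ctrl and 0.743 ± 0.167 in cKO mice (SD, n = 3, exact permutation test, p = 0.1, the smallest possible), a ratio chosen after the values were seen. In Input it was 0.445 ± 0.0336 and 0.379 ± 0.0125 (SD, n = 3, exact permutation test, p = 0.1). In P24 bulk cortex it was 0.593 ± 0.0565 in Ctrl and 0.396 ± 0.124 in cKO mice (SD, n = 4, exact permutation test, p = 0.0571).

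**Figure D4:**
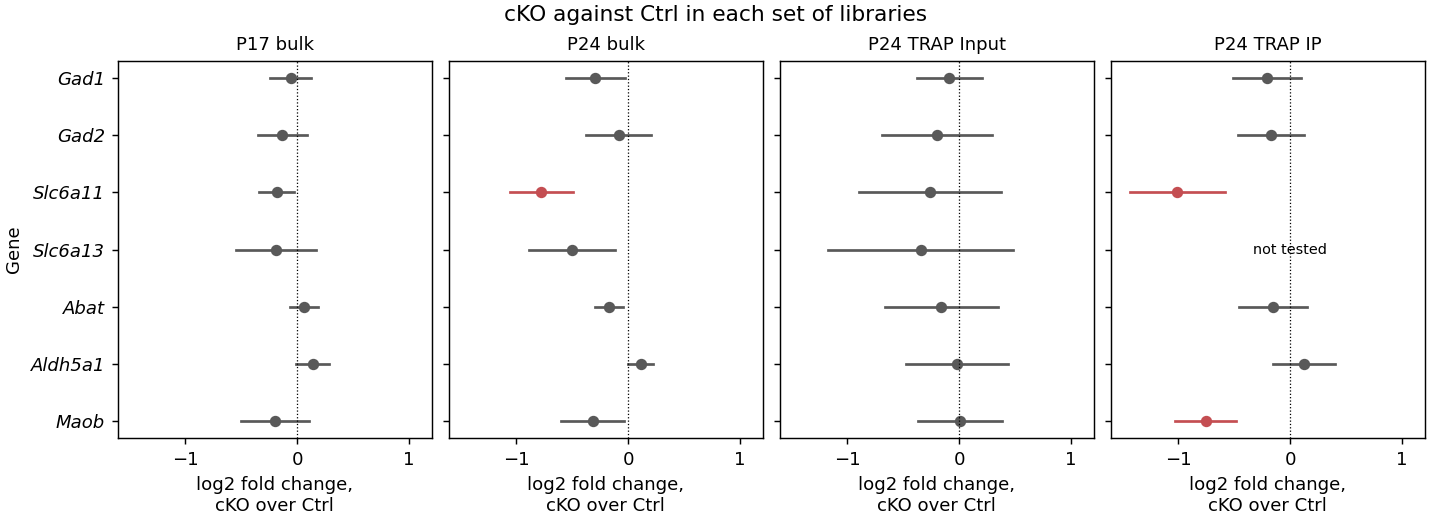
Log2 fold change of each gene, cKO over Ctrl, with its 95% confidence interval, in the 4 sets of libraries; red marks an adjusted p under 0.05 (edgeR's quasi-likelihood test). Slc6a11 is red in P24 bulk (-0.78) and IP (-1.01), Maob in IP (-0.75), and no gene is red at P17 or in Input.

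None of the 7 genes was called at P17 (20 of 21201 genes called, 0.0943%, or 109 with the replicate number as a block) or in the Input libraries (0.109% of 23828 genes). At an unadjusted p under 0.05 in edgeR, Slc6a11 was the only member counted at P17, where 847 of 21201 genes were. No member was counted in Input, where 960 of 23828 genes were. DESeq2 called 0 members in each. The difference between the genotype effects was tested directly. Between P24 and P17, 0.047% of 23395 genes were called and none of the 7 genes, with edgeR or with DESeq2. At an unadjusted p under 0.05, Slc6a11 and Abat were counted, where 1479 of 23395 genes were. The interaction term of Slc6a11 was -0.59 ± 0.16 on the log2 scale (SE, adjusted p = 0.375, edgeR), and -0.29 without P24 Ctrl replicates 1 and 4. Between IP and Input, 0.0582% of 25768 genes were called, and again none of the 7 with edgeR. Maob alone of the 7 was counted at an unadjusted p under 0.05, where 2252 of 25768 genes were. The interaction terms were -0.75 ± 0.37 for Slc6a11 (SE, adjusted p = 0.6, edgeR) and -0.77 ± 0.20 for Maob (SE, adjusted p = 0.203, edgeR). That of Maob passed the threshold with DESeq2 (adjusted p = 0.0367) and without cKO Input replicate 1 (adjusted p = 0.0493, edgeR), and that of Slc6a11 then reached -1.04 (adjusted p = 0.0638, edgeR). A difference of the cKO effect between ages, or between IP and Input, was therefore not shown for Slc6a11 with these settings.

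The immunoprecipitate split the 7 genes into a recovered and a depleted group, the same in Ctrl and in cKO mice. In Ctrl mice, all 7 genes were called between IP and Input, against 71.0% of 24385 genes, with 4 higher (35.3% of all genes were called higher) and 3 lower (35.7%). Maob had the largest IP to Input ratio of the members, 10, 10.5 and 10.2 in the 3 Ctrl mice, and its ratios were close to each other. Slc6a11 followed at 4.64, 5.38 and 7.64. Abat lay between 1.61 and 1.88 and Aldh5a1 between 1.77 and 1.97, so that these mitochondrial enzymes were recovered to a small and similar extent. The decarboxylase genes were depleted, with ratios between 0.242 and 0.348 for Gad1 and between 0.332 and 0.435 for Gad2, and Slc6a13 was the most depleted member at 0.0844, 0.145 and 0.0921, although its IP values rest on under 10 reads a library. In cKO mice, all 7 were called in the same directions (56.3% of 24011 genes called, 27.8% higher and 28.5% lower). The call of Abat in cKO mice was lost without IP replicate 1 or without IP replicate 3, with an adjusted p of up to 0.1 (edgeR), and its log2 difference lay between 0.55 and 0.91 without any 1 library. The ratio of Maob was 7.09, 4.94 and 6.13 there, below all Ctrl mice, and that of Slc6a11 was 4.79, 2.32 and 3.97, which overlapped the Ctrl range in 1 mouse. That mouse, replicate 1, was the one with the low Input library, and without this library the log2 difference of Slc6a11 between IP and Input in cKO mice was 1.49 in place of 1.76. The astrocyte markers had a median log2 difference between IP and Input of 2.72 in cKO against 3.51 in Ctrl mice, and their summed Input level lay between 1760 and 2080 CPM in cKO against 880 to 1070 CPM in Ctrl mice. Their part in the ratios was not tested. IP and Input of a mouse are not independent, and with the mouse as a block all 7 genes were called in the same directions in each genotype.

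**Figure D5:**
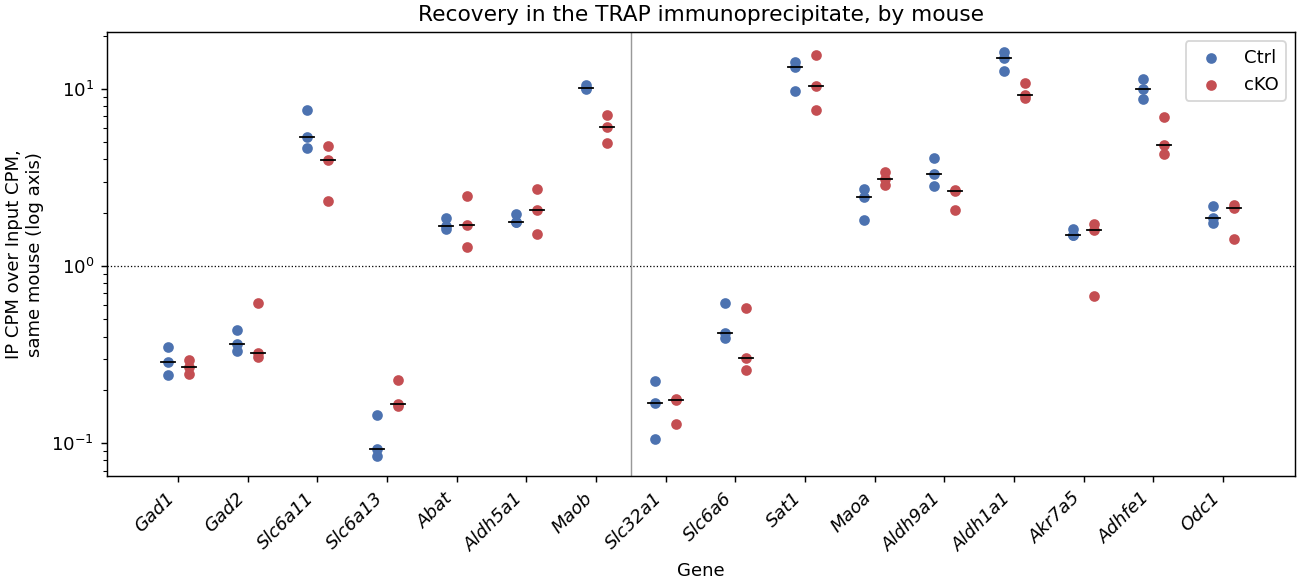
Ratio of IP CPM to Input CPM in the same mouse, on a log axis, for the 7 genes (left of the grey line) and other genes of GABA metabolism and transport; blue points are Ctrl, red points cKO mice, black bars medians, and the dotted line marks a ratio of 1. Maob and Slc6a11 lie above 1 and Gad1, Gad2 and Slc6a13 below 1 in every mouse, the cKO points lie below all Ctrl points for Maob, Adhfe1, Aldh1a1 and Aldh9a1, and they lie above all Ctrl points for Slc6a13 and Maoa.

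Further genes of GABA metabolism and transport were counted as a list of 10 (Slc6a12, Slc32a1, Slc6a6, Odc1, Sat1, Maoa, Aldh9a1, Aldh1a1, Akr7a5 and Adhfe1). In IP, 9 were tested, of which 2 were higher and 3 lower in cKO mice, with a median log2 fold change of -0.04 (11.6% of all genes were called higher and 8.42% lower). Sat1, the spermidine/spermine acetyltransferase of polyamine breakdown, was higher at 455, 645 and 415 CPM against 266, 253 and 237 CPM in Ctrl IP (log2 1.01 ± 0.15, SE, adjusted p = 0.00131, edgeR). It was also the only gene of the list called in P24 bulk cortex, where 1.26% of all genes were called higher, at 24.6, 40.4, 41.9 and 36.8 CPM in cKO against 16.4, 18.7, 17.7 and 20.5 CPM in Ctrl mice (log2 0.97 ± 0.14, SE, adjusted p = 0.00436, edgeR). Every cKO library lay above every Ctrl library in each case. With Ctrl replicates 1 and 4 left out, its bulk log2 fold change was 0.98 ± 0.19 (SE, adjusted p = 0.0714, edgeR), so that the value stayed and the call was lost with fewer libraries. Adhfe1, the hydroxyacid-oxoacid transhydrogenase that acts on gamma-hydroxybutyrate, was lower in IP at 97.9, 73.4 and 83.9 CPM against 162, 141 and 148 CPM (log2 -0.81 ± 0.12, SE, adjusted p = 0.00118, edgeR). Slc6a6, the taurine transporter, was lower in IP at 14, 17.2 and 17.5 CPM against 22, 24.6 and 36.4 CPM (log2 -0.76 ± 0.18, SE, adjusted p = 0.0131, edgeR), although it was depleted in IP against Input. Aldh9a1, which encodes an aminobutyraldehyde dehydrogenase, was lower by a smaller margin (log2 -0.43 ± 0.12, SE, adjusted p = 0.0312, edgeR). Aldh1a1, another aldehyde dehydrogenase gene of the list, was not called in IP. Its mean there was 398 CPM in cKO against 412 CPM in Ctrl mice (exact permutation test, p = 0.7). No gene of the list was called at P17 or in Input by edgeR; Sat1 in Input had a log2 fold change of 1.19 ± 0.21 (SE, adjusted p = 0.141, edgeR), and without cKO Input replicate 1 it was called higher (0.97 ± 0.13, SE, adjusted p = 0.0179, edgeR). Slc32a1, the vesicular GABA transporter, was at 136, 108, 122 and 151 CPM in P24 bulk Ctrl and 93.1, 114, 107 and 99.8 CPM in cKO mice (log2 -0.32 ± 0.10, SE, adjusted p = 0.159, edgeR), with replicates 1 and 4 again the highest Ctrl libraries, and without them its log2 fold change was -0.15 ± 0.09 (SE, adjusted p = 0.611, edgeR).

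Markers of other cells moved with some of these groups. The summed level of the 10 astrocyte markers lay between 10800 and 14000 CPM in Ctrl IP and between 11400 and 15500 CPM in cKO IP libraries, which overlapped, and 1 of the 10 was called (Gfap, higher). With the replicate number as a block, 2 of the 10 were called higher and 4 lower in IP. In P24 bulk cortex, the summed level of the astrocyte markers lay between 2060 and 2210 CPM in Ctrl and between 2960 and 3210 CPM in cKO mice. Of the 10, 5 were called higher and 1 lower there, while Slc6a11 was lower. Over all genes, 1.26% were called higher and 0.462% lower in P24 bulk cortex. Of 13 interneuron markers, 2 were lower in P24 bulk cKO mice (Adarb2 and Sp8) and none was higher. In IP, 4 were lower (Dlx1, Dlx2, Dlx5 and Sp8) and 1 higher (Pvalb), where 8.42% of all genes were called lower and 11.6% higher. The summed level of the 13 interneuron markers lay between 429 and 466 CPM in P24 bulk Ctrl and between 363 and 397 CPM in cKO mice, without overlap. It lay between 343 and 390 CPM in Ctrl IP and between 318 and 337 CPM in cKO IP. None of these markers was at 0 in every library of a group. Lhx6, Sst and Vip were not called in any comparison of cKO with Ctrl. Pvalb was higher in cKO IP (log2 0.58 ± 0.13, SE, adjusted p = 0.0106, edgeR). Dlx1, a homeobox gene of immature and some mature GABAergic neurons, was at 42.6, 26.8, 21.7 and 47.5 CPM in P24 bulk Ctrl and 19, 18.3, 22.6 and 19.8 CPM in cKO mice. Sp8, a zinc-finger gene of some GABAergic lineages named here after its values were seen, was at 7.99, 2.45, 2.26 and 9.45 CPM in the same Ctrl libraries and between 1.01 and 1.54 CPM in cKO. The high Ctrl libraries were replicates 1 and 4, as for Slc6a11, Gad1 and Gad2. In IP, Sp8 was at 10.3, 4.34 and 7.02 CPM in Ctrl and between 1.79 and 2.37 CPM in cKO mice. With Ctrl replicates 1 and 4 left out of the bulk data, the median log2 fold change of the 13 markers was -0.20, against -0.21 with all libraries, that of Dlx1 was -0.27 against -0.79 and that of Sp8 was -0.98 against -2.21, and none was called. The part of these markers in the values of the GABA genes was not tested.

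The genes most like each member across the 28 libraries were ranked by Pearson's r of log2 CPM, centred within bulk P17, bulk P24 and TRAP-Seq, among 16499 genes. The TRAP-Seq libraries dominate this measure, since the IP and Input values of a gene lie far apart. Slc6a11 was closest to Slc4a4 (r = 0.969), the electrogenic sodium bicarbonate cotransporter of astrocytes, followed by Klhdc7a and Nwd1. Maob was closest to Ndrg2 (r = 0.99) and Gjb6 (r = 0.99), the latter encoding the gap junction protein connexin 30, and to Asrgl1. Slc6a13 was closest to Igf2 (r = 0.955), Gm49394 and Fmod, which encodes the matrix protein fibromodulin. Slc6a13 was ranked against 16500 genes. Its own level lay under the limit for ranked genes, a mean log2 CPM of 1 in each experiment, and its IP values rest on 4 to 9 reads a library. Gad1 was closest to Dnajc27 (r = 0.98), Grip2 and Ndrg4, and Gad2 to Cyld (r = 0.964), Kctd12 and Tiam1. Abat was closest to Enah (r = 0.95), and Aldh5a1 to 4932702P03Rik (r = 0.979), the antisense gene that overlaps it, and to Cs (r = 0.963), which encodes citrate synthase.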

How the data were processed

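Per the labels and the study's methods, reads were aligned in Galaxy by RNA STAR (MM10 genome), and the authors deposited whole-number counts per Ensembl gene, 1 table per experiment. The counting tool, strand setting and annotation are not given in the sources used here, and only the names of the bulk tables show the age. Symbols, positions and exonic lengths were taken from GENCODE M21 (GRCm38) and promoters from RefSeq.

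Genes were tested with edgeR 4.0.16 (R 4.3.3): TMM factors, filterByExpr (minimum count 10, minimum total 15, proportion 70%), two-sided quasi-likelihood test, Benjamini-Hochberg adjustment over all genes tested, threshold 0.05. The SE is the log2 fold change over the root of F, and 95% intervals use the test's t distribution. A fit held only the libraries compared; interactions held all bulk or all TRAP-Seq libraries. Mean CPM were compared by exact two-sided permutation tests. The alternatives were DESeq2 1.42.0, other scaling, no filter, a stricter filter, a replicate block, a joint fit and fewer libraries. Same-numbered Ctrl and cKO libraries deviated together at P17 (lowest correlation of deviations 0.21 over 4 pairs); the lowest was 0.123 in P24 bulk and 0.13 in IP over genes of at least 1 on the log2 CPM scale, but 0.029 and 0.036 over all genes tested. The tests were tried on simulated counts.

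The genes named were the 7 members, further GABA genes past the threshold, listed markers and, for each member, the 3 genes with the most similar profile. Slc32a1, Aldh1a1, Igfbp2, Sp8 and the other list genes named beside a count were chosen after their values were seen. No value entered the rule for the members, but they and the lists were chosen with earlier results of these data known. Some genes, the targeted one included, are not reported here.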

Additional observations from a re-analysis of the deposited data

Results flagged for a closer look

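In each group of 4 bulk libraries, the gap between the highest or lowest library and its nearest neighbour was set against the whole range of the group for the 7 genes and the 10 further GABA genes, 68 groups in all, and 3 gene and group pairs had a library far from the others. None was one of the 7 genes, and chance flags about 1 in 20 groups. Slc6a6 was at 139 CPM in P24 bulk cKO replicate 2 against 131 to 132 CPM in the other cKO libraries. Akr7a5, an aldo-keto reductase gene, was at 11.7 CPM in P17 bulk Ctrl replicate 2 against 13.1 to 13.2 CPM. Adhfe1 was at 15.1 CPM in P24 bulk Ctrl replicate 1 against 13.7 CPM in each of the others.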

How the results depend on the processing

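Slc6a11 was called lower in cKO P24 bulk and IP, and Maob in IP, under every alternative and without each library in turn, and the other members were called in none of the 4 comparisons of cKO with Ctrl. The replicate block changed no member's call. Counts of genes called were less stable. With DESeq2 they were 598 (P24 bulk), 41 (P17), 127 (Input), 54 (age interaction) and 284 (fraction interaction), and without a filter 618, 55, 112, 62 and 189. The block gave 109 (P17), 8 (Input), 55 (age interaction) and 6 (fraction interaction). At least 10 counts in every library gave 15 in Input, and one fit over all TRAP-Seq libraries 1684 in IP and 127 in Input. Leaving out 1 library gave between 216 and 950 genes in P24 bulk, 11 and 19 at P17, 2633 and 4810 in IP, 4 and 112 in Input, 4 and 149 for the age interaction and 3 and 432 for the fraction interaction. The highest came without P24 bulk cKO replicate 1 in P24 bulk and for the age interaction, and without cKO Input replicate 1 in Input and for the fraction interaction. Without P24 Ctrl replicates 1 and 4, chosen after the values were seen, 101 genes were called in P24 bulk, 7 in the age interaction and 2347 between the ages. For the fraction interaction, 1 member (Maob) was called with DESeq2 and 0 to 1 without 1 library, and between the ages 1 to 2 without 1 library (Abat, without P24 Ctrl replicate 4).

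Directions turned only for members that were not called. With 1 library left out, the turned log2 values ranged over -0.157 to 0.025 (Gad2) in P24 bulk, -0.11 to 0.003 (Gad1) at P17 and -0.001 to 0.228 (Aldh5a1) and -0.264 to 0.001 (Gad2) in IP. In Input, they ranged over -0.312 to 0.066 (Abat), -0.132 to 0.177 (Aldh5a1), -0.32 to 0.023 (Gad2), -0.048 to 0.12 (Maob), -0.462 to 0.019 (Slc6a11) and -0.639 to 0.068 (Slc6a13). For the age interaction, they ranged over -0.063 to 0.014 (Aldh5a1) and -0.026 to 0.157 (Gad2), for the fraction interaction over -0.232 to 0.147 (Abat), -0.061 to 0.242 (Aldh5a1), -0.267 to 0.033 (Gad1) and -0.201 to 0.19 (Gad2), and between the ages over -0.053 to 0.135 (Gad2) and -0.043 to 0.16 (Maob). Other turns were Aldh5a1 (0.001, no filter) and Maob (-0.026, library size alone) in Input, and, for the fraction interaction, Abat (0.002 with at least 10 counts in every library, 0.034 with the replicate block) and Gad2 (-0.073 with library size alone, -0.011 with no filter). Without Ctrl replicates 1 and 4, Gad2 was at 0.128 in P24 bulk, Gad1 at 0.039 for the age interaction, and Gad2 at -0.144, Maob at -0.002 and Slc6a11 at -0.07 between the ages. The causes were not tested. Depth limits Slc6a13 in IP.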
